A study of Mus musculus with 1666 samples.

Results

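Epithelial cells were compared with fibroblast-like cells from the same library plates of mouse whisker follicles at embryonic stage E17.0, with cells chosen by the measured levels of Krt5, Trp63, Col3a1 and Pdgfra. A cell counted as epithelial with Krt5 and Trp63 at 10 TPM or more and Col3a1 under 50 TPM, and as fibroblast-like with Col3a1 at 50 TPM or more, Pdgfra at 10 TPM or more and Trp63 under 10 TPM. TPM is an abundance scaled for gene length and for the total of the cell. Of 269 E17.0 cells with values, 180 were epithelial and 46 fibroblast-like, and the whole series holds 1614 cells with values. The other 43 cells met neither rule.

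The study sorted single cells of developing whisker follicles and sequenced their total RNA with RamDA-seq, a full-length method that also captures RNA without a poly(A) tail. The mice carried a transgene for nuclear Kikume Green-Red, a fluorescent protein that light turns from green to red, and whole single follicles were switched to red before sorting. At E17.0 the sort kept cells with ITGA6 on their surface (the alpha 6 integrin of basal cells) and red nuclei, and left out cells with CD31, an endothelial protein, so that basal epidermal cells were the stated target. The same rule gave 54 epithelial and 14 fibroblast-like cells at E11.5, where the sort did not ask for red nuclei, 53 and 210 at E13.0, 144 and 19 at E14.0, and 178 and 126 at E15.0, and these 4 stages serve for comparison. All groups share the sort for ITGA6 and against CD31, and no strain, sex or treatment is named. The labels tie no cell to an embryo or litter, and whether plates share embryos is not given, so the E17.0 cells of a class count as 1 sample spread over 3 plates and carry no test.

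A hair follicle forms when surface epithelium grows down into mesenchyme, and both tissues keep signalling to each other. Epithelial cells are held together by cadherins and desmosomes and anchored to a basement membrane by hemidesmosomes. Mesenchymal cells lay down fibrillar collagen, and those at the follicle base condense into the dermal papilla, which directs growth of the epithelium. Whisker follicles are large sensory hair follicles in which this exchange starts early.

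The 3 plates had overlapping intervals for both classes. Epithelial cells were 58 of 89, 58 of 89 and 64 of 91 cells on plates 1, 2 and 3 (66.9% of all E17.0 cells, exact Clopper-Pearson 95% interval 60.9 to 72.5%). Fibroblast-like cells were 16, 18 and 12 (17.1%, 12.8 to 22.1%). Among the 43 cells of neither class, 11 had Col3a1 but Pdgfra under 10 TPM (1 of them with Krt5 as well), 3 had Trp63 but Krt5 under 10 TPM, and 29 were low in Trp63 and Col3a1. The intervals cover counting error only.

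Most cells of both classes lay far from the thresholds and a few came near them, which is a description of the choice and no test. Krt5, a keratin of basal cells, had a lowest value of 13.1 TPM and a median of 807 TPM among the epithelial cells, against a highest value of 2.57 TPM among the fibroblast-like cells. Trp63, the transcription factor p63 of stratified epithelium, was at 18.5 TPM or more in the first and at 2.11 TPM or less in the second. Col3a1, a fibrillar collagen, reached 40.3 TPM in 1 epithelial cell and was 198 TPM at its lowest in the fibroblast-like cells. Pdgfra, the receptor for platelet-derived growth factor A, was at 14.5 TPM or more in the fibroblast-like cells and passed 10 TPM in 3 epithelial cells.

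Depth per cell is unknown, since TPM keeps none, and quality measures differed a little between the classes. By plate, the typical (median) epithelial cell had 16353 to 16739 genes at 1 TPM or more and the typical fibroblast-like cell 17162.5 to 17444.5. The single locus Mir6236 held 20.8 to 22.5% of all TPM in the first and 18.6 to 18.8% in the second, and mitochondrial genes took 3.59 to 3.85% and 2.53 to 2.94%. The part that the number of detected genes has in the results was not tested. Of 8 lists of other cell types, 3 or more markers at 10 TPM were found in 1 epithelial and 1 fibroblast-like cell, both for the pericyte list. The summed endothelial markers reached 188.9 TPM in an epithelial cell and 51.6 TPM in a fibroblast-like cell, with Cdh5, Cldn5 and Tie1 of that list under 10 TPM in all 226 cells. Of its other 5 genes, Egfl7 was at 10 TPM or more in 46 epithelial and 10 fibroblast-like cells, Tek in 13 and 0, Pecam1 in 2 and 4, and Kdr and Emcn in 0 and 1 each. In the cells of neither class, 19 carried 3 or more endothelial, 16 Schwann cell and nerve, 6 melanocyte and 3 Merkel cell markers.

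Differences are given as log2(TPM + 1) of the fibroblast-like plate mean minus that of the epithelial plate mean, averaged over the 3 plates, with the range over plates in brackets. A gene is called past the fold where this difference is 2 or more (4-fold) in 1 direction on all 3 plates. The pseudocount of 1 understates the change of genes with low values. Among the 23839 genes that averaged 1 TPM or more over class and plate, 541 (2.27%) were higher in fibroblast-like and 404 (1.69%) in epithelial cells, or 945 (3.96%) either way. The median over all genes was 0.18, and 64.2% of genes lay above 0. Scaling by median-of-ratios factors lowered that median by 0.16 and gave 479 and 456 genes, so that the fibroblast-like share of calls went from 57.2 to 51.2%. Removing mitochondrial and ribosomal RNA, 7SK, 7SL and Mir6236 before rescaling gave 613 and 486 genes, which held 538 of the 541 and 402 of the 404. The rule used 4 genes of these same cells, so the counts describe the classes and nothing is read from them as a test.

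**Figure D1:**
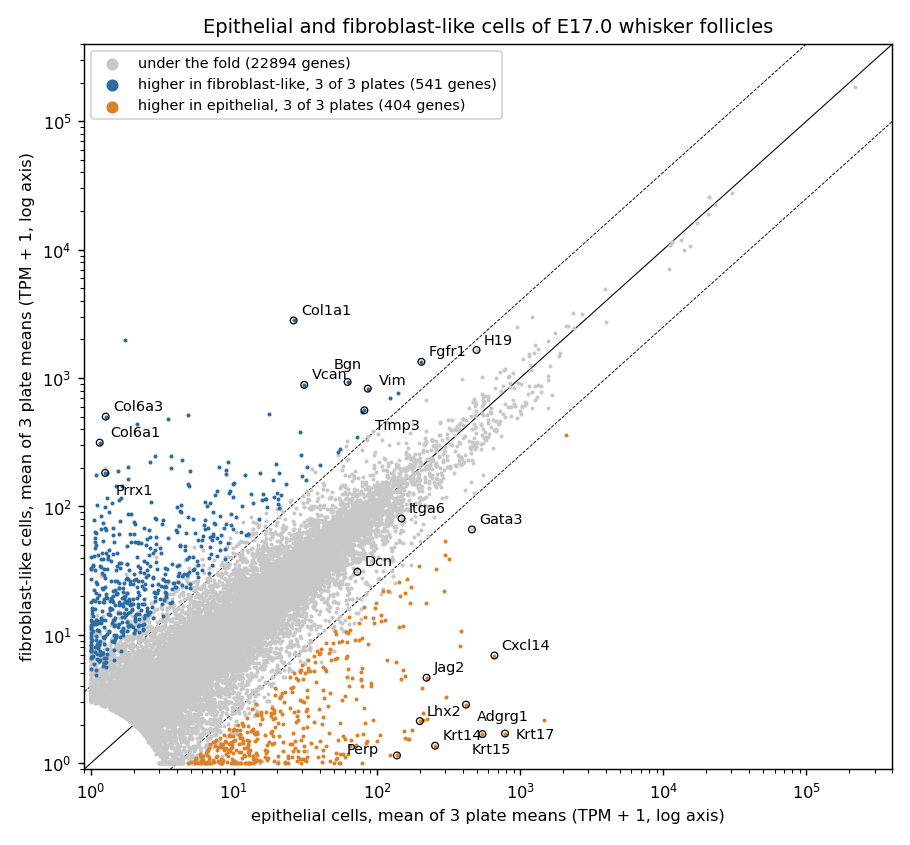
Mean of the 3 plate means in epithelial (x axis) and fibroblast-like cells (y axis) for each gene tested, as TPM + 1 on log axes. Blue and orange points are the 541 and 404 genes at least 4-fold apart on every plate, dashed lines mark 4-fold and the solid line equality. Collagen VI chains sit near the left edge and Krt14, Krt15 and Krt17 near the bottom.

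Collagen VI separated the classes most widely on the fibroblast-like side. Col6a3, which codes for a chain of this microfibrillar collagen (chr1:90765923-90843971, minus strand, GRCm38, protein-coding), averaged 482, 498 and 520 TPM in fibroblast-like cells on plates 1 to 3 and 0.22, 0.27 and 0.324 TPM in epithelial cells. The groups do not overlap, and the difference was 8.62 (8.62 to 8.63). The partner chains Col6a1 and Col6a2 differed by 8.08 and 7.70. Aqp1, a water channel, averaged 108.2, 247 and 172.6 TPM against 0.124 TPM or less. Prrx1, Twist2 and Ebf1, transcription factors of mesenchyme, differed by 7.16, 7.09 and 6.36. The remaining leaders were Serpine2, a protease inhibitor (6.79), Col1a1, the main chain of collagen I (6.75), Pdlim3, a protein of actin fibres (6.69), Eln, elastin (6.60), Cyp26b1, which breaks down retinoic acid (6.59), Lama2, a laminin chain (6.48), Serpinf1, a secreted serpin (6.46), and Cped1 (6.44).

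Keratins led on the epithelial side. Krt17, a keratin of the outer root sheath (chr11:100256217-100261029, minus strand), averaged 984, 681 and 686 TPM in epithelial cells and 0.83, 0.613 and 0.668 TPM in fibroblast-like cells. Every epithelial plate lay above every fibroblast-like plate, with a difference of -8.83 (-9.07 to -8.69). Krt15 and Krt14, both keratins of basal cells, followed with -8.33 and -7.52. These keratin genes are close relatives, and reads that their counting could not place would blur the values of single members. Adgrg1, an adhesion receptor coupled to G proteins, differed by -7.25, and Perp, a membrane protein of desmosomes, by -6.91. Others of the 15 largest were Krtdap (-6.80), Trim29 (-6.76), Lgals7, a galectin of stratified epithelium (-6.70), Lama5, a laminin chain (-6.67), Gjb2, a gap junction channel (-6.66), Cxcl14, a chemokine of skin (-6.66), Irx2 (-6.66), Pkp3, a desmosomal plaque protein (-6.64), Tenm2 (-6.63) and Lhx2, a LIM homeobox factor of hair placodes and stem cells (-6.58).

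Of 12 basal and outer root sheath keratins that passed the filter, 8 were past the fold toward epithelium and 0 the other way, with a list median of -3.38. Krt19, Krt80, Krt6a, Krt75 and Krt8 were the other 5. Krt8 was at 10 TPM or more in 4, 5 and 14 epithelial cells by plate. Its call depends on 1 cell of plate 2 with 62.5 TPM. Krt6a was at 10 TPM or more in 4, 4 and 5 epithelial cells by plate. On plate 3, 1 cell alone had 2689 TPM, and the call of Krt6a depends on this cell. Krt79, known from the duct of the upper follicle, averaged 0.182, 30.5 and 13.52 TPM in epithelial cells of plates 1 to 3, so that plate 1 held almost none of it and the gene stayed under the fold. In all, 3 of the 180 epithelial cells had it at 10 TPM or more, none of them on plate 1. Krt16 was also lowest on plate 1, with 0.231, 6.81 and 51.3 TPM from 0, 4 and 3 cells at 10 TPM or more, and its highest cell alone had 3221 TPM. Of 7 tested genes of suprabasal differentiation, Krtdap and Calml3 were past the fold. Krtdap averaged 150, 186 and 164 TPM in epithelial cells, with 58 of 180 cells at 10 TPM or more, while Krt1 and Krt10, the keratins of the spinous layer, averaged at most 10.3 and 7.89 TPM on any plate. Keratins of the inner root sheath were present. Krt28 averaged 37.5, 86.2 and 28.8 TPM and Krt25 averaged 11.6, 63.2 and 13.4 TPM in epithelial cells, with plate 2 highest for both. In fibroblast-like cells both were at 0.137 TPM or less. Krt25 was at 10 TPM or more in 5, 11 and 5 cells by plate, and 1 cell of plate 2 alone had 2897 TPM.

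Epithelial adhesion lists lay mostly on 1 side. In the desmosome list 7 of 10 genes were higher in epithelial cells and 0 in fibroblast-like cells (median -4.55). Dsp, desmoplakin, averaged 161, 157.8 and 144 TPM against 0.874 TPM or less. Pkp2, a plaque protein, was level, with 1.82 to 2.13 TPM and 1.22 to 1.62 TPM. Among junction and polarity genes 11 of 16 were higher in epithelial cells (median -3.86), among them Cdh1, E-cadherin, with 62.4, 71.9 and 76.3 TPM against 0.425, 0.387 and 0.315 TPM. Esrp1 and Esrp2, splicing factors of epithelial cells, differed by -5.17 and -4.81. The mesenchymal adhesion and cytoskeleton list divided less, with 5 of 18 genes past the fold toward fibroblast-like cells, 0 the other way, 6 below 0 and a median of 0.86. Cdh2, N-cadherin, differed by 3.74 and Cdh11, cadherin 11, by 4.62, and the latter averaged 224, 248 and 193 TPM in fibroblast-like cells. Vim, vimentin, the intermediate filament of mesenchyme, averaged 768, 871 and 839 TPM there, yet it was also at 83.1, 80.8 and 91.8 TPM in epithelial cells.

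The anchoring apparatus was divided less evenly. Itgb4 and Itga3, integrin chains that bind laminin, differed by -3.40 and -5.83, and Col17a1, the collagen of hemidesmosomes, by -5.35. Itga6, the gene of the sorted protein, averaged 136, 139 and 167 TPM in epithelial cells and 67.9, 105 and 65.6 TPM in fibroblast-like cells, a difference of -0.91 (-1.33 to -0.40). Both classes carried the transcript. Lama3, a laminin alpha chain of hemidesmosome anchorage, averaged 38.3, 34.9 and 45 TPM in epithelial cells and 24.1, 41.1 and 15 TPM in fibroblast-like cells, and these ranges overlap. Lamb3, a laminin beta chain, was under the fold (-1.35).

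Basement membrane genes showed a division by chain. Of 23 tested, 5 were higher in fibroblast-like cells and 3 in epithelial cells (median -0.42). Lama2 averaged 176, 166 and 146 TPM in fibroblast-like cells and under 0.9 TPM in epithelial cells, while Lama5 averaged 182, 189 and 251 TPM in epithelial cells and 0.113, 3.77 and 0.554 TPM in fibroblast-like cells. Lama4 was also fibroblast-like (5.61), as were Nid1 and Nid2, the nidogens that bridge laminin and collagen IV (4.87 and 3.29). Frem2, a matrix protein of the epithelial side of skin, was epithelial (-4.74), whereas its relative Frem1 was fibroblast-like (2.82). The chains common to many laminins were close in both classes: Lamb1 differed by 0.31 and Lamc1 by 0.60, and Hspg2, perlecan, by -0.42.

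Interstitial matrix was mostly mesenchymal, with 15 of 28 genes higher in fibroblast-like cells, 0 in epithelial cells and a median of 2.55. Bgn, the proteoglycan biglycan, averaged 739, 1145 and 908 TPM against 47.8 to 73 TPM. Vcan, versican, a proteoglycan of the dermal papilla, averaged 1435, 482 and 735 TPM, highest on plate 1. Postn, periostin, and Mfap4, a microfibril protein, differed by 3.04 and 5.71. Some matrix genes did not divide: Fn1, fibronectin, averaged 213, 291 and 266 TPM in epithelial cells and 286, 400 and 168 TPM in fibroblast-like cells, and Col12a1 differed by -0.81. Dcn, decorin, was on average higher in epithelial cells on all 3 plates, though under the fold, with 102, 76 and 37.4 TPM against 16.3, 51.7 and 21.9 TPM (-1.29, -2.58 to -0.55).

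Enzymes that cross-link or trim collagen followed the matrix, with 8 of 23 higher in fibroblast-like cells, 0 in epithelial cells and a median of 2.20. Pcolce, which helps remove the collagen propeptide, averaged 227, 192 and 150 TPM against 4.81 TPM or less. Lox, Loxl1 and Loxl3, lysyl oxidases that cross-link collagen and elastin, differed by 4.44, 4.25 and 3.18. The collagen hydroxylases P4ha1 and Plod2 were level (0.03 and -0.16). Timp3, an inhibitor of matrix proteases, averaged 629, 634 and 417 TPM against 86.5, 68.3 and 87.1 TPM, and the groups do not overlap.

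Transcription factors split between the classes. Of 26 epithelial factors tested, 13 were higher in epithelial cells and 0 in fibroblast-like cells (median -2.95), and of 24 mesenchymal factors, 16 were higher in fibroblast-like cells and 0 in epithelial cells (median 4.47). Barx2, Tbx1 and Dlx3 differed by -5.62, -5.50 and -5.04, and Grhl2, a factor that maintains epithelial junction genes, by -4.37. Nfatc1, a factor of hair follicle stem cells, averaged 236, 178 and 242 TPM against 11.2, 14.9 and 23.9 TPM. On the other side Twist1 (6.28), Alx4 (6.19), Tbx15 (5.99), Foxd1 (5.83), Zeb2 (5.74), Zeb1 (4.71) and Snai1 (3.90) were past the fold; Zeb1, Zeb2 and Snai1 repress E-cadherin. Snai2, of the same family, went the other way while under the fold, with 27.1, 34.5 and 37.1 TPM in epithelial cells and 9.29, 9.09 and 6.08 TPM in fibroblast-like cells (-1.90).

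**Figure D2:**
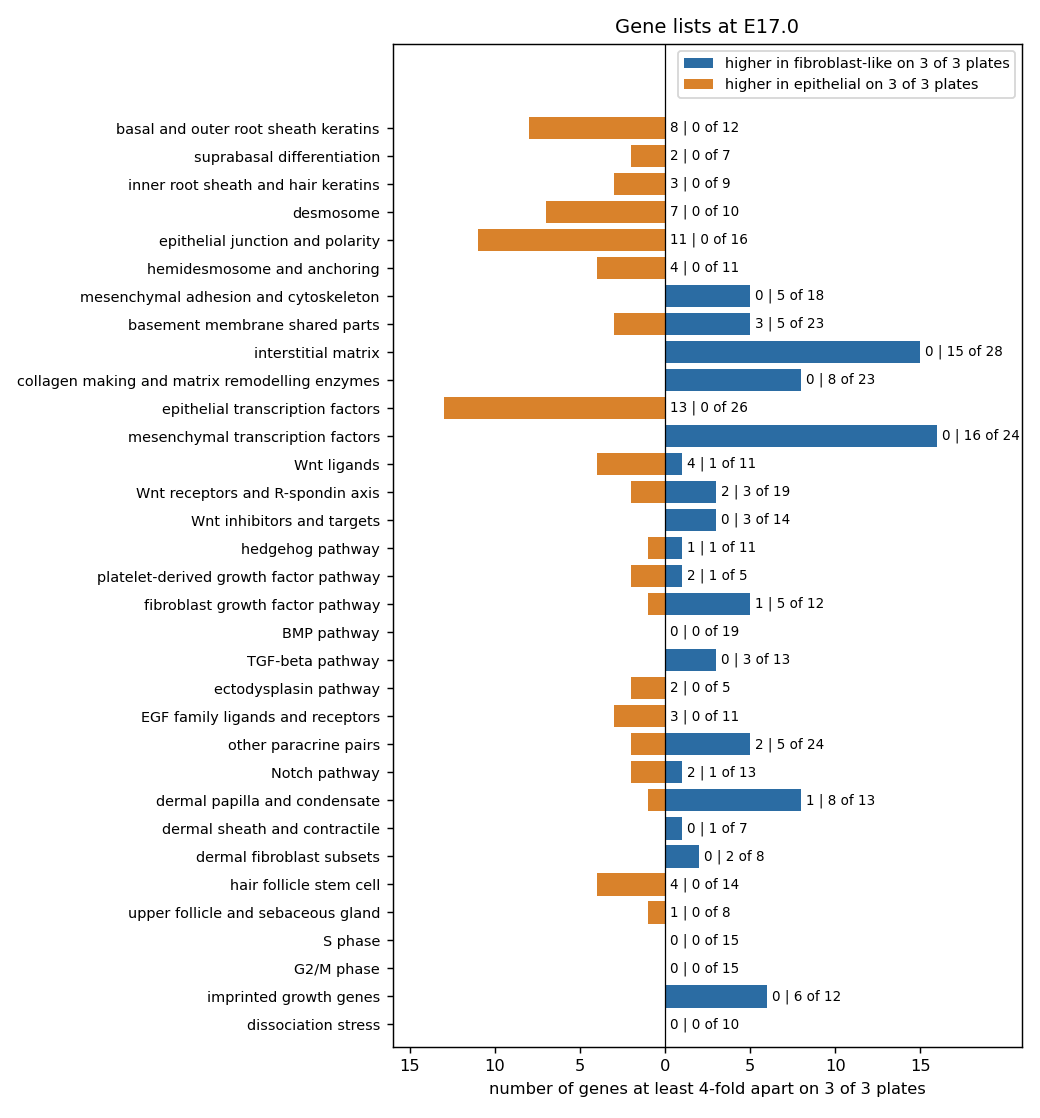
Number of genes in each of the 33 lists that were at least 4-fold apart on all 3 plates, orange to the left for epithelial and blue to the right for fibroblast-like cells; the text at each bar gives both counts and the genes tested. Desmosome, junction and keratin lists hold orange bars alone and the matrix lists blue bars alone, and the BMP, cell cycle and stress lists hold 0.

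Zeb and Snail proteins bind the short motif CACCTG, the E-box of the E-cadherin promoter, so the region before the start of the junction genes is shown as context. These windows were chosen after the values were seen. RefSeq's table for GRCm38.p6 held windows for 6 of the 11 junction genes past the fold, and 4 of these carried CACCTG or its reverse complement CAGGTG in the 250 bases before the start. Over all 32851 windows of that length in the table, which belong to 27025 gene symbols, 5657 (17.2%) carried it. The first count is by gene and the second by window, so the shares are unlike measures. Crb3 has a second, overlapping window that is not shown. A match is a description of letters and no evidence of binding. The sequences are given 5′ to 3′ on the gene's strand with the motif in capitals.
Epcam, an epithelial adhesion molecule, chr17:87635729-87635978, plus strand: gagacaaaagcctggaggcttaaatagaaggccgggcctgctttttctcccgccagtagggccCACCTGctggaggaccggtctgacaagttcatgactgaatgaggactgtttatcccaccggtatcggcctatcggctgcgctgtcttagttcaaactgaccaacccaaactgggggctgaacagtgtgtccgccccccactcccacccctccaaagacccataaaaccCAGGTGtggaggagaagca
Crb3, a polarity protein of the cell apex, chr17:57061951-57062200, plus strand: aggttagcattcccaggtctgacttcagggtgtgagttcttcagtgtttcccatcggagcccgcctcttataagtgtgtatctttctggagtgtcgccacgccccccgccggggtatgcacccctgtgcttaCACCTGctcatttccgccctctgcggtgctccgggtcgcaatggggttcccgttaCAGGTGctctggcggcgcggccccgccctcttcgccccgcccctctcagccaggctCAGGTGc
Spint2, an inhibitor of membrane proteases, chr7:29281978-29282227, minus strand: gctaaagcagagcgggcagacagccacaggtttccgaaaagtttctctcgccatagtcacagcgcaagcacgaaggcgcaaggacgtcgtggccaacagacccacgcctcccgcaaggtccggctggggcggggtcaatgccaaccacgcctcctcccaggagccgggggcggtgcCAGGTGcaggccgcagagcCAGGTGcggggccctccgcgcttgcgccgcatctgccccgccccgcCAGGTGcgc
Rab25, a trafficking protein of epithelial cells, chr3:88548280-88548529, minus strand: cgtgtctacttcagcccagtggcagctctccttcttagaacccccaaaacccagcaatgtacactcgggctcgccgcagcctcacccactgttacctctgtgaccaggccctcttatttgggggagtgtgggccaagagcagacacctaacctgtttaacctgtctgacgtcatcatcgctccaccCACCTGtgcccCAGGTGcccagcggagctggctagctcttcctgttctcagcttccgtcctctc
Epcam and Rab25 carry the motif at 2 places and Crb3 and Spint2 at 3. Their differences were -4.82, -5.07, -2.89 and -4.75. The windows of Cldn1 and Spint1, which differed by -3.37 and -4.60, do not hold these letters.

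MicroRNA loci were read from the same table. The reads come from total RNA over short loci (70 to 110 bases for those shown), so a mature microRNA and its precursor or host transcript cannot be told apart. Of 1267 such loci tested, 23 were past the fold toward fibroblast-like and 11 toward epithelial cells (median 0.25). Over all genes tested the shares were 2.27% and 1.69%, and neither share of these loci was higher. The loci shown here were chosen after the values were seen, for the miR-199 and miR-200 families and miR-31, with the mature sequences from RefSeq and the seed (bases 2 to 8) in capitals.
miR-199a-5p (Mir199a-2): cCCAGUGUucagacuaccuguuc
miR-199a-3p (Mir199a-2): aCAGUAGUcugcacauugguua
miR-199b-3p (Mir199b): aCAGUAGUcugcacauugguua
miR-200a-3p (Mir200a): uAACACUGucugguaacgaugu
miR-200b-3p (Mir200b): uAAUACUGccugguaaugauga
miR-31-5p (Mir31): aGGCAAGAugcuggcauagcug
The 3p arms of miR-199a and miR-199b share seed and sequence, while miR-200a and miR-200b do not share a seed. Mir199a-2 averaged 66.5, 192 and 40.6 TPM in fibroblast-like cells and 8.91, 16.8 and 5.76 TPM in epithelial cells (2.94), and it lies within the noncoding gene Dnm3os on the same strand. Mir199b differed by 2.79. Mir31 averaged 3.64, 7.06 and 10.95 TPM in epithelial cells and is listed at 0 on all 3 plates of fibroblast-like cells. Mir200a and Mir200b, known for repressing Zeb1 and Zeb2, averaged 0.913 to 4.49 and 1.75 to 3.39 TPM in epithelial cells and are listed at 0 in fibroblast-like cells, with both loci under the fold.

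Signalling genes were read as ligands, receptors and feedback targets. In the Wnt pathway 4 of 11 ligands were higher in epithelial cells and 1 in fibroblast-like cells. Wnt10b averaged 15.2, 20.9 and 12.1 TPM against 0.144 TPM or less, Wnt6, Wnt7b and Wnt10a differed by -3.46, -3.83 and -3.04, and Wnt11 was the fibroblast-like ligand (3.01). The agonists Rspo1 and Rspo3, which strengthen Wnt signals, were fibroblast-like (4.60 and 4.31). Rspo3 averaged 66.1, 5.29 and 21.6 TPM there, low on plate 2, and at most 0.0855 TPM in epithelial cells. Lgr4, a receptor for R-spondins, averaged 213, 183 and 202 TPM in epithelial cells and 57.2, 51.9 and 50.1 TPM in fibroblast-like cells. The inhibitors Dkk2 and Sfrp2 (4.62 and 2.87) and the feedback gene Nkd2 (5.10) were fibroblast-like, and the target Axin2 was level (0.34).

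In the hedgehog pathway 1 of 11 genes was past the fold each way, with a median of 0.00. Shh, the ligand, averaged 16.3, 19.3 and 11.1 TPM in epithelial cells and at most 0.374 TPM in fibroblast-like cells (-3.68), and Hhip, which binds and holds back the ligand, averaged 37.1, 4.16 and 12.9 TPM in fibroblast-like cells and at most 0.246 TPM in epithelial cells (3.50). Ptch1, receptor and target of the pathway, averaged 497, 125 and 260 TPM in fibroblast-like cells and 56.1, 50.9 and 73.5 TPM in epithelial cells, so the gene was present in both. Smo, the signal transducer, was level (0.00).

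Several growth factors and their receptors lay on opposite sides. Pdgfa averaged 62.9, 62.3 and 83.3 TPM in epithelial cells and 5.64, 11.9 and 6.81 TPM in fibroblast-like cells, and Pdgfb differed by -2.87. Pdgfra, the receptor for the first, is in the rule. Pdgfrb, which binds the second, averaged 64.1, 56.2 and 75.2 TPM in fibroblast-like cells and at most 0.305 TPM in epithelial cells (5.81). Fgf9, made by epithelium, averaged 30.8, 27.4 and 30.1 TPM there (-4.02), and Fgfr1, a receptor of mesenchyme, averaged 1333, 1243 and 1435 TPM in fibroblast-like cells (2.71). At a difference of this size Fgfr1 was still well present in epithelial cells, so it was not confined to 1 class. Fgf7 and Fgf10, mesenchymal ligands of epithelial receptors, were fibroblast-like at low levels (2.16 and 2.60). Fgfr2 was level on plates 1 and 3 and lower in fibroblast-like cells on plate 2, with 320, 41 and 230 TPM against 284, 284 and 254 TPM.

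Among other pathways, the receptors Edar and Tnfrsf19 of the ectodysplasin group were epithelial (-2.72 and -3.51), and Eda, the ligand of Edar, was level (0.31). The EGF receptors Egfr and Erbb3 were epithelial (-2.47 and -4.51), as were Met, the receptor for hepatocyte growth factor (-3.39), and Bdnf, a neurotrophin (-2.44). Igf1, the guidance ligands Slit2 and Slit3, Nrp1 and Cxcr4 were fibroblast-like (2.96, 3.93, 4.22, 2.81 and 2.51). Inhba, a subunit of activin, averaged 70.1, 132 and 67.1 TPM in fibroblast-like cells and at most 0.413 TPM in epithelial cells (6.02), and the receptors Tgfbr2 and Tgfbr3 differed by 3.42 and 3.48. In the Notch group Jag2 averaged 206, 229 and 229 TPM in epithelial cells (-5.90), Lfng, which modifies Notch, was epithelial (-3.26) and Hey2, a Notch target, fibroblast-like (4.12). Hey2 was at 10 TPM or more in 7, 1 and 3 fibroblast-like cells by plate, and its call depends on the 1 cell of plate 2. The BMP list had 0 of 19 genes past the fold. Bmp3 and Bmp4 leaned to fibroblast-like cells (3.54 and 1.85), and the antagonists Nog and Fst changed direction between plates, with -0.48 to 3.38 and -2.77 to 1.65.

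**Figure D3:**
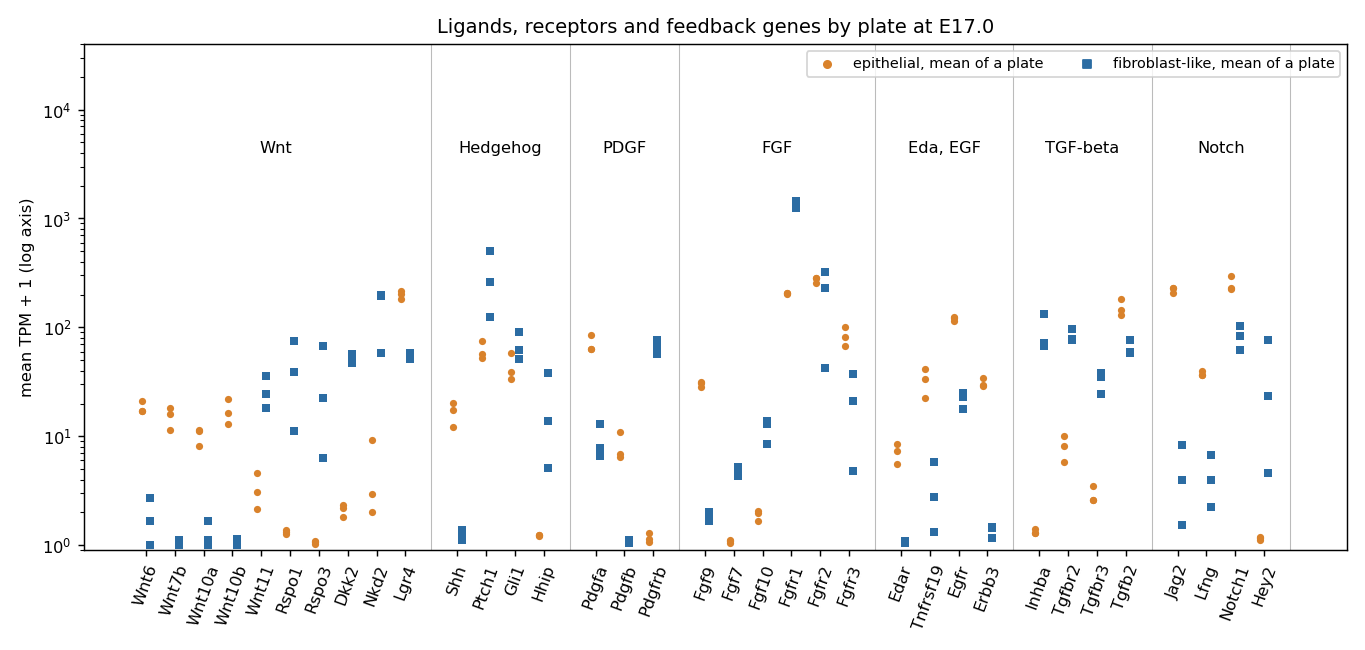
Mean TPM + 1 (log axis) of pathway genes on each of the 3 plates, as orange circles for epithelial and blue squares for fibroblast-like cells. Wnt6, Wnt7b, Wnt10a, Wnt10b, Shh, Pdgfa and Fgf9 lie higher in epithelial cells, Pdgfrb, Fgfr1, Hhip and Inhba higher in fibroblast-like cells, and the blue squares of Rspo3, Hhip, Fgfr2 and Hey2 are spread, with plate 2 lowest.

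Some lists described the cells more than the contrast. Of 13 dermal papilla and condensate genes, 8 were fibroblast-like and 1, Cntfr, was epithelial (-2.71). Of 7 dermal sheath and contractile genes 1 was past the fold, and Acta2, smooth muscle actin, was at 4.82 TPM or less on every plate in both classes. S phase and G2/M genes had 0 of 15 past the fold each, with medians of -0.54 and 0.27. Ccnb1, cyclin B1 of the G2/M list, differed between plates of fibroblast-like cells: it averaged 3.82, 3.85 and 39.6 TPM on plates 1 to 3, against 8.78, 11.2 and 10.4 TPM in epithelial cells. Imprinted growth genes had 6 of 12 toward fibroblast-like cells and 0 the other way (median 2.44). Igf2, a fetal growth factor, averaged 397, 956 and 228 TPM against 21.9, 8.38 and 19.1 TPM. Genes of dissociation stress had 0 of 10 past the fold, and Fos averaged 652, 157.5 and 155 TPM in fibroblast-like cells, highest on plate 1, against 47.5, 48 and 85.9 TPM.

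Papilla genes that differed between plates were unevenly spread over the fibroblast-like cells. Rspo3 was at 10 TPM or more in 12 of the 46 (26.1%, 14.3 to 41.1%), in 7 of 16, 2 of 18 and 3 of 12 on plates 1 to 3. It was so in 0 of 180 epithelial cells, for which the exact interval goes up to 2.03%. The gene and the groups it makes were chosen after the values were seen, so what follows is a description with no test. Of these 12 cells, 11 had Hey2, 11 had Alpl, the alkaline phosphatase used to stain dermal papillae, 11 had Sox2, a factor of papilla cells, 11 had Rspo1, 10 had Nog and 11 had Fst at 10 TPM or more. Among the other 34 cells, Hey2, Nog and Fst reached 10 TPM in 0 cells, Alpl in 2, Rspo1 in 4 and Sox2 in 14. The papilla list was split. Bmp3 was at 10 TPM or more in 12 Rspo3 cells and 7 others, Hhip in 10 and 2, Fgf10 in 10 and 8 and Enpp2 in 10 and 18. Corin was so in 4 and 0, Fgf7 in 1 and 5 and Crabp1 in 1 and 26. Genes of the epithelial factor list were among those in the Rspo3 cells: Gata3 averaged 231 TPM there and 2.12 TPM in the other 34, and Tfap2a was at 10 TPM or more in 11 of 12 and in 0 of 34. Krt5 stayed at 2.57 TPM or less in all 46 cells, which the rule did not ask for.

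The other 34 fibroblast-like cells had their own genes. Aqp1 was at 10 TPM or more in 31 of 34 and in 1 of 12 Rspo3 cells, Tbx15 in 28 and 1, and Pdlim3 in 31 and 3. Crabp1, a gene of the papilla list that binds retinoic acid, was so in 26 and 1. Itga6, the gene of the sorted protein, was at 10 TPM or more in 30 of 34 and in 3 of 12, Lama3 in 19 and 0, and Sox9, a factor of the outer root sheath, in 31 and 2. Counting both marker genes, 11 cells had Rspo3 alone, 31 had Aqp1 alone, 1 had both and 3 had neither. The matrix differed in kind as well: Vcan averaged 2337 TPM in Rspo3 cells and 365 TPM in the others, while Col1a1 averaged 471 and 3634 TPM and Eln 99 and 669 TPM. Ptch1 averaged 925 and 65.3 TPM, Fgfr2 averaged 625 and 33.1 TPM and Lef1, the transcription factor of Wnt signals, 970 and 138 TPM. Plate 2 held the fewest Rspo3 cells, and their mean level differed too. Its 2 cells averaged 181 TPM of Fgfr2, against 669 and 817 TPM in those of plates 1 and 3. For Ptch1 they averaged 488 TPM, against 1095 and 820 TPM. However, 1 of these 2 cells was the cell that had both Rspo3 and Aqp1, so the means mix unlike cells.

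Epithelial cells were mixed too. Lef1 was at 10 TPM or more in 64 of 180 (35.6%, 28.6 to 43.02%), with 19, 25 and 20 by plate, and Nfatc1 in 120 (66.7%, 59.3 to 73.5%). Lef1 alone was found in 37 cells, Nfatc1 alone in 93, both in 27 and neither in 23, again a split chosen after the values were seen. Shh was at 10 TPM or more in 32 cells and Wnt10b in 39, and all of these were Lef1 cells. Krt28 was found in 44 cells, of which 39 had Lef1, and Edar in 25, of which 22 had Lef1. Dcn averaged 194 TPM in the 64 Lef1 cells and 2.54 TPM in the other 116, and 40 of the 50 cells with Dcn at 10 TPM or more were Lef1 cells.

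Matrix and cytoskeleton genes split both ways with Nfatc1. Fn1 averaged 150.0 TPM in the Nfatc1 cells and 471 TPM in the rest, and Dcn 2.66 and 207 TPM. Col1a2, a chain of collagen I, was at 10 TPM or more in 95 epithelial cells, of which 86 had Nfatc1, and averaged 112 TPM in the Nfatc1 cells and 6.27 TPM in the other 60. Vim averaged 124 and 8.66 TPM, with 101 of the 105 cells at 10 TPM or more among the Nfatc1 cells. Itga8, the alpha 8 integrin, was at 10 TPM or more in 106 cells, 100 of them with Nfatc1. Col3a1, which the rule keeps under 50 TPM, had a median of 0.249 TPM over the 180 epithelial cells, and 6 reached 10 TPM. Sox9 and Tbx1, stem cell factors, were at 10 TPM or more in 127 and 133 cells, of which 109 and 112 had Nfatc1. The base for these counts is the 66.7% of all epithelial cells that had Nfatc1. Both genes were picked after the values were seen, and not every factor followed Nfatc1. Vdr averaged 76.3 TPM in the Nfatc1 cells and 221.2 TPM in the other 60, with medians of 31.9 and 33.3 TPM.

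**Figure D4:**
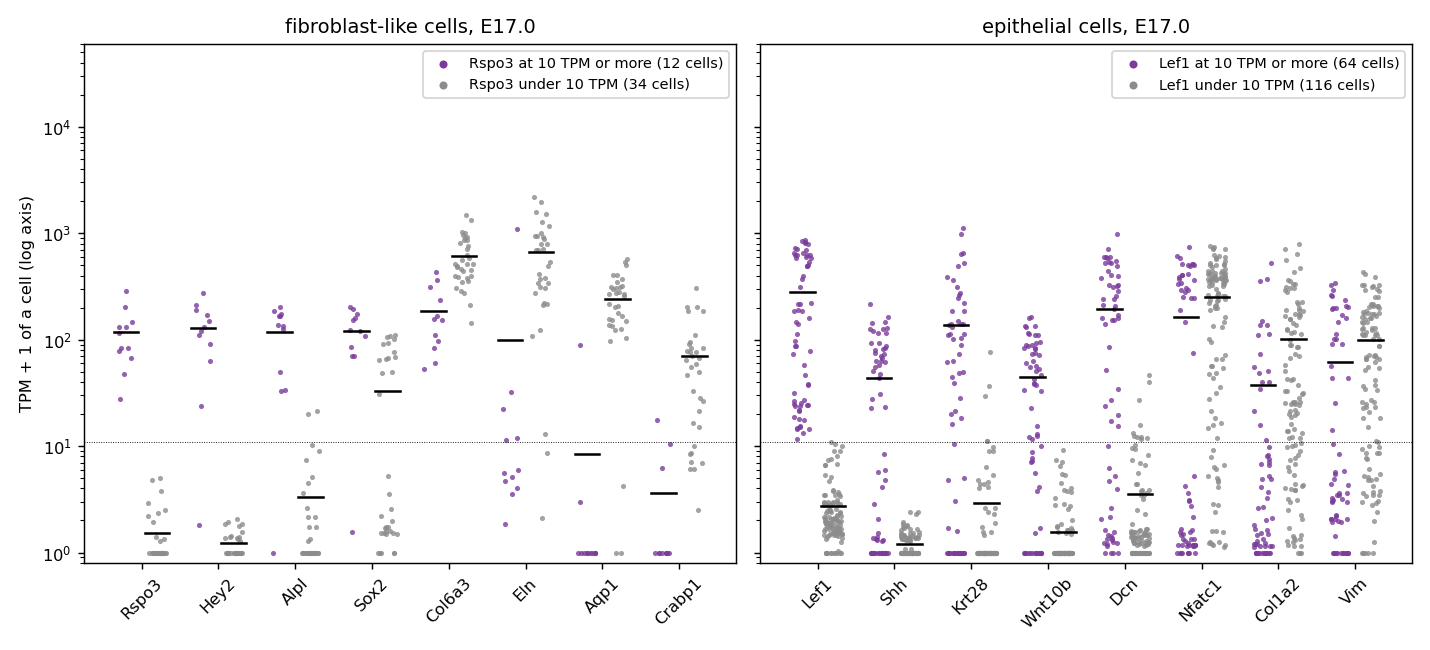
TPM + 1 of each cell (log axis) for 8 genes in the 46 fibroblast-like cells (left, 12 with Rspo3 in purple) and 8 genes in the 180 epithelial cells (right, 64 with Lef1 in purple). Bars are group means and the dotted line marks 10 TPM. Hey2 and Alpl lie with Rspo3 and Aqp1 and Crabp1 apart from it; Shh, Wnt10b and Dcn lie with Lef1.

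The same rule chose cells in the 4 other stages, whose values do not enter those of E17.0. There 1 difference per stage entered a one-sample limma fit, with the Benjamini-Hochberg adjustment over 24135 genes and a threshold of 0.05. In this fit 1729 genes (7.16%) were higher in fibroblast-like and 1244 (5.15%) in epithelial cells, and the median over all genes was 0.07. Without E14.0 the counts were 379 and 376, without E15.0 454 and 442, without E13.0 608 and 511, and without E11.5 2906 and 1759. One E15.0 plate stood apart with 10 epithelial and 73 fibroblast-like cells of 90, and without it the counts were 1755 and 1203. Its name carries the number of an E13.0 plate, and the other E15.0 plates carry those of the E17.0 plates. What the numbers mean is not given, and the fits treat stages as independent. Of the 541 fibroblast-like genes at E17.0, 523 were tested in the other stages and 339 passed in the same direction (64.8% of those tested, 19.6% of the 1729). Of the 404 epithelial genes, 395 were tested and 256 passed (64.8% and 20.6%). None of either list passed in the opposite direction.

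Several leading genes of E17.0 passed in the other stages. Col6a3 differed by 7.78 ± 0.19 (SE, 4 stages, limma adjusted p = 0.00018), Prrx1 by 7.17 ± 0.13 (adjusted p = 8.6e-05), Krt14 by -8.58 ± 0.22 (adjusted p = 0.00018) and Cdh1 by -5.55 ± 0.27 (adjusted p = 0.00085), each in the same direction in 4 of 4 stages. Of the 15 leading genes each way at E17.0, 13 fibroblast-like and 14 epithelial ones passed, Aqp1, Pdlim3 and Krtdap being those that did not. Junction and polarity genes had 15 of 16 higher in epithelial cells, interstitial matrix 19 of 28 and mesenchymal factors 17 of 29 higher in fibroblast-like cells, with list medians of -3.45, 2.15 and 2.47. Pdgfa and Pdgfrb differed by -4.04 ± 0.50 and 4.69 ± 0.24 (adjusted p = 0.0096 and 0.00092 by limma). Shh and Hhip differed by -2.50 ± 0.39 and 2.87 ± 0.56 (adjusted p = 0.018 and 0.033 by limma). The calls of Pdgfa, Shh and Hhip depended on the stages used: without E14.0 the adjusted p by limma was 0.052 for Pdgfa, 0.074 for Shh and 0.13 for Hhip, and Shh and Hhip were also lost without E13.0 or without E15.0. Snai2, Timp3 and Vcan did not pass (adjusted p = 0.19, 0.065 and 0.37 by limma).

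A test of E17.0 against the other stages found 0 of 24162 genes in limma at an adjusted p of 0.05 (1044 at an unadjusted p under 0.05, lowest adjusted p 0.855). The lone E17.0 value is assumed to vary like the other stages. No gene is therefore called particular to E17.0. Lama3 averaged 0.0176, 0.194, 0.0271 and 1.03 TPM in fibroblast-like cells at E11.5, E13.0, E14.0 and E15.0 and 26.7 TPM at E17.0, while its epithelial level was 13.2 to 46.1 TPM over these 5 stages (difference of E17.0 from the rest 4.07 ± 0.69 (SE), adjusted p = 0.991 by limma). Igf2 went from 604 to 16.5 TPM in epithelial cells between E11.5 and E17.0 and from 32.1 to 527 TPM in fibroblast-like cells, and its difference was -4.19, -0.81, -0.04, 1.97 and 4.92 in order of stage (5.69 ± 2.12 (SE) for E17.0 against the rest, adjusted p = 0.991 by limma).

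**Figure D5:**
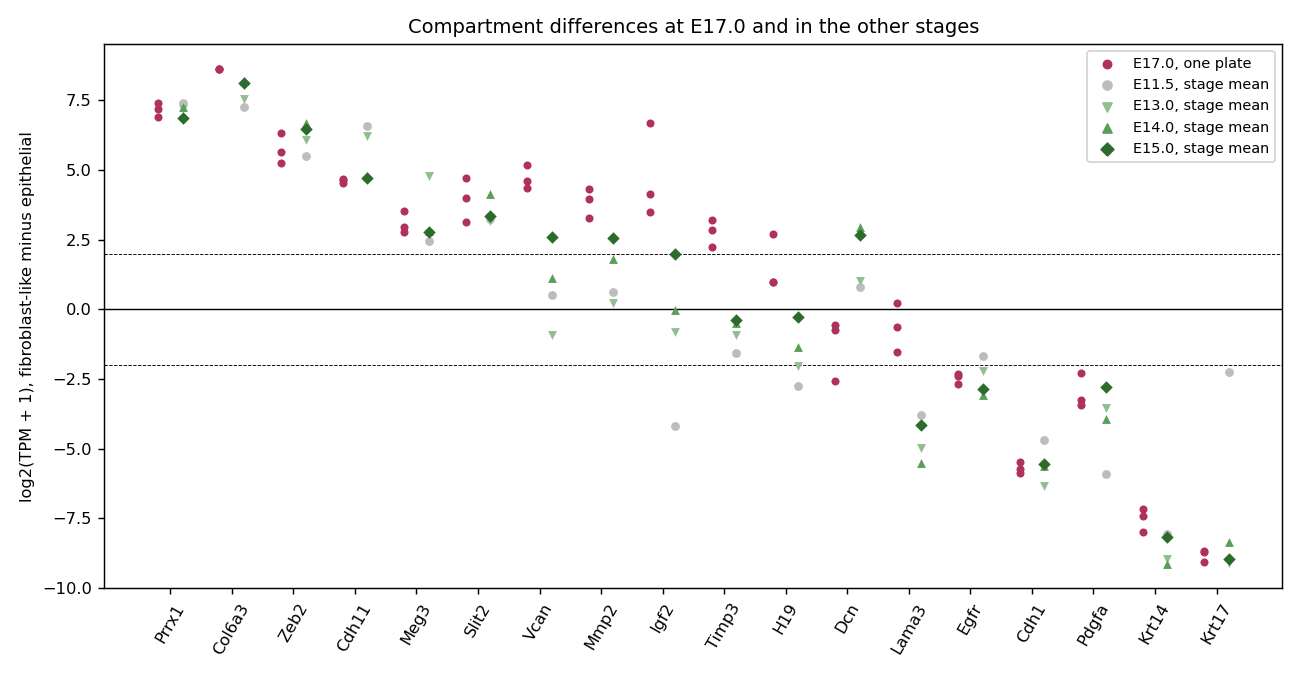
Difference between fibroblast-like and epithelial cells, as log2(TPM + 1), for named genes at E17.0 (1 red point per plate) and as 1 point per stage at E11.5, E13.0, E14.0 and E15.0. Dashed lines mark a 4-fold difference. Prrx1, Col6a3, Cdh1 and Krt14 lie on the same side in all stages, and the E17.0 points of Timp3, H19 and Dcn lie on the other side of 0 from the 4 other stages.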

How the data were processed

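Total RNA of single sorted cells was read with RamDA-seq. The authors deposited a TPM table of 49662 gene symbols; reads were handled with HISAT2 2.0.4 and featureCounts of Subread 1.5.0 on mm10, per the submitters' processing notes. The annotation and the strand setting are not given in the sources used here, so overlapping genes and close copies (Krt14, Krt16 and Krt17; Krt6a and Krt6b) may share reads. Of 1666 labelled cells, 52 of low quality have no column. Columns sum to 991213 to 999516 TPM, no pair is identical (0 found), and depth is unknown.

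Plates were taken from the titles. Class means were taken per plate, and differences are log2 with a pseudocount of 1 TPM. Genes averaging under 1 TPM over the 6 class and plate means were left out, and the 4 rule genes were kept out of all counts. In the other stages limma 3.58.1 (R 4.3.3, eBayes with trend, two-sided) used 1 difference per stage; a stage needed 10 cells of each class on plates with 5 or more of each, which left out E12.0 and E13.5. The steps were also run on simulated data, and no recovery rate is given here. No doublet caller was run, since cells were sorted singly. Named genes are the 4 rule genes, the 15 largest differences each way with a mean of 20 TPM or more in the higher class, and members of 33 lists; genes outside these are said to be chosen after their values were seen. The members and lists were chosen with earlier results of these data known. Coordinates are from GENCODE M21 (GRCm38) and sequences from RefSeq (GRCm38.p6). Alternatives changed the pseudocount, filter, averaging, scaling, class rule, fold, plates and stages.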

Additional observations from a re-analysis of the deposited data

Results flagged for a closer look

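Of the named genes, 4 lay on 1 side of 0 on all 3 plates at E17.0 and on the other side in each of E11.5, E13.0, E14.0 and E15.0. Dcn, the proteoglycan decorin, differed by -1.29 at E17.0 and by 0.81, 1.03, 2.94 and 2.67 in the other stages in that order. Timp3, the protease inhibitor, differed by 2.76 against -1.55, -0.93, -0.48 and -0.37. H19, an imprinted noncoding RNA, differed by 1.55 against -2.75, -2.05, -1.36 and -0.26. Lamc1, the laminin gamma 1 chain, differed by 0.60 against -2.22, -1.12, -0.64 and -0.30. The limma test of E17.0 against the other stages passed none of the 4, with differences of -3.10 ± 0.93, 3.61 ± 0.48, 3.34 ± 0.88 and 1.65 ± 0.72 (SE) and adjusted p of 0.991, 0.955, 0.991 and 0.991 by limma. Of the 50 epithelial cells with Dcn at 10 TPM or more at E17.0, 40 had Lef1.

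Hhip stood apart at E11.5, with a difference of 0.65 against 3.55, 3.56 and 3.70 at E13.0, E14.0 and E15.0. Chance alone passes the threshold used in about 1 in 20 groups, and 16 genes were looked at. E11.5 has 1 plate with 14 fibroblast-like cells.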

How the results depend on the processing

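At E17.0 the counts higher in fibroblast-like and in epithelial cells went from 541 and 404 to 946 and 636 with a pseudocount of 0.1 TPM, 201 and 159 with 5 TPM, 329 and 219 with a filter at 10 TPM (fewer genes tested), 1561 and 994 at 2-fold and 211 and 164 at 8-fold. Averaging log values over cells gave 363 and 263 among 18778 genes tested. These held only 309 of the 541 and 221 of the 404, so many calls depend on taking means of TPM over cells. Pooling cells over plates gave 992 and 594, since no plate then has to agree. In the other stages the counts were 1102 and 709 with the filter at 10 TPM and 631 and 582 with no filter. Leaving out a stage gave 379 to 2906 and 376 to 1759; the cause was not tested. For E17.0 against the other stages, no filter gave 34 and 12 genes, and a pseudocount of 5 TPM gave 1 in epithelial cells. The fibroblast-like share was 12.6% with the low thresholds of the class rule lowered, an alternative chosen after seeing the data. Over 177 genes checked and 2655 values at E17.0, 2186 were rated the same as in the main setting and 469 as moved. Of the called values there, 0 changed sign. In the other stages 227 of 2671 values lost the call, 61 gained it and 0 changed sign. Depth is unknown, so low values carry no counting error. No paired analysis was possible because replicate numbers only name cells; differences were instead taken within plates and within stages.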

Other observations

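Some lists had more genes past the test in the other stages than past the fold at E17.0, 2 criteria that cannot be set against each other. Over all genes tested in the other stages, 7.16% were higher in fibroblast-like and 5.15% in epithelial cells. Of 15 Wnt inhibitors and targets tested there, 11 were higher in fibroblast-like cells by limma and 0 in epithelial cells (median 2.22), among them the inhibitors Dkk1, Sfrp1, Frzb and Notum. Of 15 G2/M genes, 7 were higher in fibroblast-like cells, including the topoisomerase Top2a and the kinases Cdk1 and Plk1 (median 1.04). Of 20 BMP pathway genes, 5 were higher in fibroblast-like cells, namely Bmp3, Bmp4, Bmp5, the antagonist Grem1 and the target Id2. Of 10 dissociation stress genes, 4 were higher in epithelial cells, namely Jun, Hspa1b, Dnajb1 and Atf3, with a median of -1.56. Hspa1b may share reads with its near-identical copy Hspa1a.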
